A study of Homo sapiens with 12 samples.

Results

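This account follows 10 genes of the transforming growth factor beta (TGF-beta) pathway in Ewing sarcoma cells in which c-Jun and c-Fos were switched on. The ligand genes are TGFB1, TGFB2, TGFB3 and INHBA, and the receptor genes TGFBR1 and TGFBR2. LTBP1 and LTBP2 belong to the latent TGF-beta binding protein family, and SMAD7 is the feedback gene. TGFBI encodes a matrix protein named for its induction by TGF-beta. The 10 genes were chosen by name from the 58721 genes in the count table. All 10 were among the 21013 genes with enough counts to be tested. Gene expression was measured by RNA-seq in 12 libraries of the Ewing sarcoma cell lines EW8 and TC71. Both lines carried a lentiviral, doxycycline-inducible construct for c-Jun and c-Fos, which pair to form the transcription factor AP-1, as a drug-selected pool of transduced cells. Each line was given DMSO (vehicle, 3 libraries, genotype labelled WT) or doxycycline at 2000 ng/ml (3 libraries, genotype labelled AP1_overexpression) for 72 h in DMEM with 10% serum. Cells without the transgenes were not analysed here under doxycycline, so an effect of doxycycline itself and one of c-Jun and c-Fos cannot be told apart. The labels do not say that the libraries of a group came from separate cultures, and p-values measure only the spread between these libraries.

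TGF-beta ligands are secreted in a latent complex with their own propeptide, and latent TGF-beta binding proteins tether that complex to the extracellular matrix until integrins or proteases release the ligand. The free ligand binds the type II receptor TGFBR2, which recruits and phosphorylates the type I receptor TGFBR1; the signal then passes to SMAD2 and SMAD3, which act on chromatin together with other factors, AP-1 among them. SMAD7 blocks the type I receptor and is itself induced by the pathway, and in Ewing sarcoma TGFBR2 is known as a gene repressed by the fusion oncoprotein EWS-FLI1.

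The induction was read first. JUN rose from 21.6 ± 2.61 CPM (mean ± SD, n = 3, where CPM are counts scaled to a fixed library size) under vehicle to 474 ± 44.8 CPM with doxycycline in EW8, and from 20.7 ± 4.01 to 756 ± 54.6 CPM in TC71. FOS rose from 36.8 ± 0.814 to 1078 ± 72 CPM in EW8 and from 11.7 ± 0.426 to 1580 ± 120 CPM in TC71. Reads of the transgenes and of the endogenous genes were not told apart. The 6 Ewing sarcoma markers CD99, NKX2-2, NR0B1, STEAP1, PAX7 and FLI1 were present in every group, with 0 of 6 at or under 6 counts. With doxycycline, 1 of the 6, PAX7, was called lower in each line (log2 fold change -1.25 in EW8 and -1.27 in TC71, SE 0.06 each) and 0 higher. The median log2 fold change of the 6 was -0.1 in EW8 and -0.15 in TC71. Of markers of other cell types, the 4 leukocyte markers summed to 64.9 to 79.8 CPM in EW8, nearly all of it PTPRC, and to 0.0388 to 0.387 CPM in TC71, while CD3E was at or under 6 counts in every group. The 3 endothelial markers summed to 7.22 to 8.48 CPM under vehicle and 36.1 to 43.7 CPM with doxycycline in EW8, and to 0 to 0.0388 and 3.75 to 4.61 CPM in TC71. The 5 fibroblast markers went from 78 to 86 CPM down to 59.3 to 59.9 CPM in EW8 and from 75.4 to 116 CPM up to 119 to 128 CPM in TC71. In TC71 the sum followed COL1A1, which rose from 26.1 ± 5.31 to 92.8 ± 4.74 CPM, while 3 of the 5 were called lower (DCN, PDGFRB and LUM), and the median log2 fold change of the 5 was -1.42, beside -0.93 in EW8 with 2 called lower and 1 higher. The 3 epithelial markers went from 4.71 to 6.36 up to 30.4 to 34.2 CPM in EW8 and from 2.39 to 5.98 up to 15.2 to 16.8 CPM in TC71. They did not rise together. KRT8 had a log2 fold change of 2.67 (SE 0.19) in EW8 and was not called in TC71 (0.22, SE 0.21). EPCAM rose by 4.05 (SE 0.33) in TC71 and was not called in EW8 (0.77, SE 0.55). CDH1 was at or under 6 counts in both TC71 groups. The part of these markers in the results was not tested. In such bulk samples, fewer cells that express a gene and less of its RNA per cell cannot be told apart. Totals ran from 42860665 to 60853649 counts per library, and TC71 vehicle replicate 1 stood farthest from its group (root mean square distance of 0.454 on the log2 scale, against 0.24 to 0.362 for the other libraries).

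With doxycycline, 6 of the 10 genes were called higher in EW8 (INHBA, TGFBI, TGFBR2, LTBP2, SMAD7 and LTBP1) and 6 of 10 in TC71 (TGFBI, INHBA, LTBP2, TGFBR2, LTBP1 and TGFB1), while 0 of 10 were called lower in either line. A gene was called where it had a change of over 1 on the log2 scale, up or down, and an adjusted p below 0.05 in edgeR's quasi-likelihood test with Benjamini-Hochberg adjustment over all genes tested. Among all 21013 genes, 11.4% were called higher and 3.38% lower in EW8, and 12.3% higher and 3.67% lower in TC71. By adjusted p alone, without the limit on the fold, 9 of the 10 genes were higher and 1 lower in EW8 (of all genes, 21.9% and 22%), and 8 were higher and 1 lower in TC71 (25.1% and 20.4%). The exceptions to the upward direction were TGFB3, lower in both lines, and TGFB2, which did not pass in TC71. The median log2 fold change of the 10 genes was 1.53 in EW8 and 1.84 in TC71, beside -0.03 and 0 over all genes tested. The TC71 median stayed at 1.84 with INHBA and TGFBI, at the counting floor under vehicle, set to their lower bounds. It could not move, since these genes kept the largest of the 10 values.

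**Figure D1:**
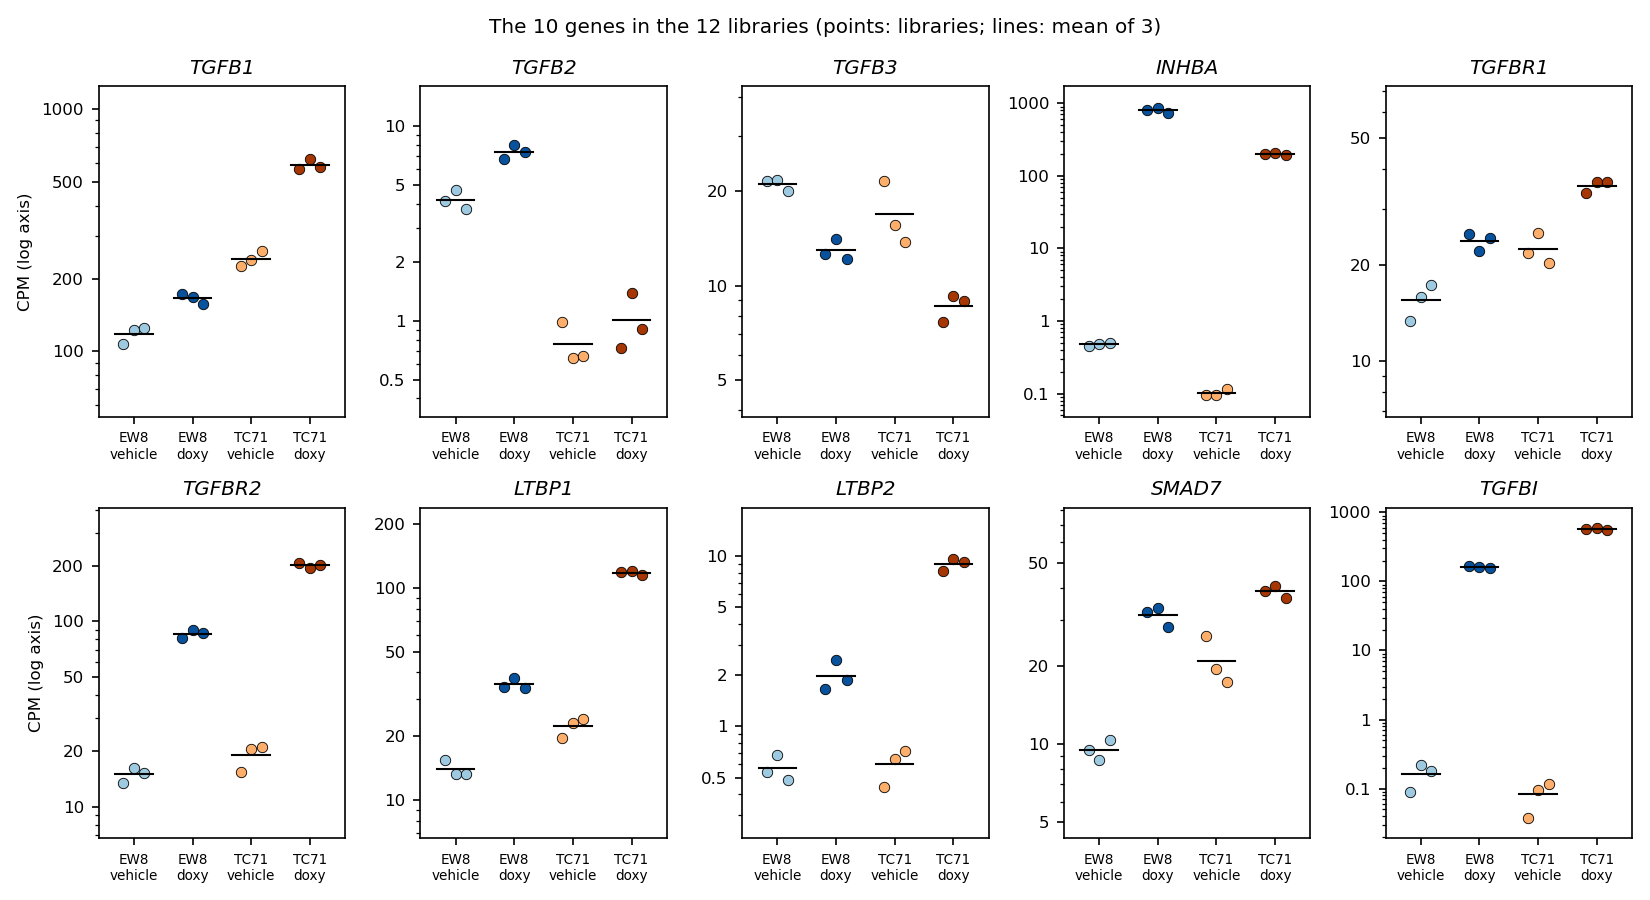
Level of each of the 10 genes in CPM on a log axis, in EW8 and TC71 cells with vehicle or doxycycline. Each point is a library and each line the mean of 3. INHBA and TGFBI climb from under 1 CPM to over 100 CPM in both lines, TGFB3 is lower with doxycycline, and the TGFB2 points of the TC71 groups overlap.

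Because c-Jun and c-Fos bind the motif TGAGTCA as a dimer, and AP-1 and related factors also bind TGACGTCA, the promoter windows of the 10 genes were searched for both on either strand (the reverse complement of the first is TGACTCA, the second is its own, and neither contains the other). RefSeq (GRCh38.p14) gave 23 windows for the 10 genes, each running from 250 bases before to 50 bases after an annotated start. There were matches in 2 of the 23 windows, 1 of TGFBR2 and 1 of LTBP1. Among all 35116 windows, 4.95% held TGAGTCA or its reverse complement and 1.85% held TGACGTCA. The sequences of the matching windows are shown up to the start site, beside those of INHBA and TGFBI, the genes that rose most and had no match, with the matches in capitals.
TGFBR2, chr3:30606351-30606601, plus strand: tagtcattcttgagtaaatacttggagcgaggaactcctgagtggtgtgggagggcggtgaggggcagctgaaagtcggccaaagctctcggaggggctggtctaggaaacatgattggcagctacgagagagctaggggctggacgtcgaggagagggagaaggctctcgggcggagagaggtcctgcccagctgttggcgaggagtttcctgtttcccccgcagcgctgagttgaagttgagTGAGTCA
LTBP1, chr2:32946703-32946952, plus strand: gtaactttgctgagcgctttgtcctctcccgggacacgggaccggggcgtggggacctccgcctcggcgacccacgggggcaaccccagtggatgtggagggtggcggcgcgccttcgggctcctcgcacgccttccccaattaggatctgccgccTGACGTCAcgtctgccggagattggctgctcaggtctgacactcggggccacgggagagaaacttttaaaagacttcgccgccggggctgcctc
INHBA, chr7:41703091-41703340, minus strand: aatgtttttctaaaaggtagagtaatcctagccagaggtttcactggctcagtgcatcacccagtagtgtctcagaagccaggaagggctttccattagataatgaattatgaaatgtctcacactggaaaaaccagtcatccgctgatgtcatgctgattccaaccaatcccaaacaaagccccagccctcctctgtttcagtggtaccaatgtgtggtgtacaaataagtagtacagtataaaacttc
TGFBI, chr5:136028738-136028987, plus strand: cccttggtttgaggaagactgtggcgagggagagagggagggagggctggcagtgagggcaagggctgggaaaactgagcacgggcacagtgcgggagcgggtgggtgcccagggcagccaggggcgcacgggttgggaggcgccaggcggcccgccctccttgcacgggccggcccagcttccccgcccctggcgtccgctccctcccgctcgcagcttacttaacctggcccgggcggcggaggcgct
The match in TGFBR2 lay on the coding strand, and its last base was the RefSeq start of that window, at position 30606601. The other RefSeq start of TGFBR2 (30606356) and the start of the counted gene (30606502) lie upstream of the match. The match in LTBP1 ended 87 bases before the start of its window's transcript. The other RefSeq window of TGFBR2 and the other 2 windows of LTBP1 held neither motif. A match in letters is not evidence of binding, and no binding was measured in these libraries. RefSeq starts differ from those of the annotation used for counting: for INHBA the window starts from position 41703090, whereas the counted gene (chromosome 7, 41667168 to 41705834, minus strand) begins further upstream.

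Among the ligands, INHBA showed the widest change. INHBA (ENSG00000122641.10) encodes the beta A subunit whose dimer is activin A, a ligand that signals through activin receptors to the same SMAD2 and SMAD3. In EW8 it was at 0.451, 0.480 and 0.503 CPM in the vehicle libraries and at 805, 863 and 729 CPM in the doxycycline libraries. In TC71 the vehicle libraries held 5, 6 and 6 counts, at most 0.116 CPM, and the doxycycline libraries 200, 204 and 191 CPM. Every doxycycline library was above every vehicle library in both lines. The log2 fold change was 10.69 (SE 0.14, adjusted p = 1.55e-21) in EW8. In TC71, where the vehicle group lay at the counting floor of 6 counts (3 read pairs, since each mate was counted), INHBA was at least 1700-fold higher with doxycycline (adjusted p = 7.95e-21). Doxycycline-treated EW8 cells had the higher level, and TC71 lay below them by 2.01 on the log2 scale (log2 difference -2.01, SE 0.06, adjusted p = 4.65e-15).

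TGFB1 (ENSG00000105329.9), the TGF-beta isoform found in most tissues, was per kilobase of exon the most abundant of the 3 TGF-beta ligand genes in every library. It was at 108, 122 and 125 CPM in EW8 vehicle and at 172, 168 and 157 CPM in EW8 doxycycline libraries. The TC71 libraries read 226, 238 and 260 CPM under vehicle and 568, 623 and 577 CPM with doxycycline. The groups did not overlap in either line. The log2 fold change was 0.49 (SE 0.07, adjusted p = 9.02e-06) in EW8, under the fold limit, and 1.29 (SE 0.07, adjusted p = 1.5e-11) in TC71, and the difference between the responses was 0.80 (SE 0.09, adjusted p = 5.87e-06). Of its exon bases, 6.64% are shared with HNRNPUL1 on the opposite strand, and reads there went to neither gene.

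TGFB2 (ENSG00000092969.11) was the ligand gene that separated the lines most among the TGF-beta isoforms. In EW8 it was at 4.15, 4.71 and 3.75 CPM under vehicle and at 6.82, 8.04 and 7.33 CPM with doxycycline, 2 groups that did not overlap (log2 fold change 0.82, SE 0.22, adjusted p = 0.00538). TC71 libraries read 0.993, 0.644 and 0.660 CPM under vehicle and 0.727, 1.39 and 0.910 CPM with doxycycline. Those groups overlapped, the log2 fold change of 0.40 (SE 0.27, adjusted p = 0.25) did not pass, and with 30 to 58 counts a library a change of this size was not detectable. TGFB2 shares 26.6% of its exon bases with TGFB2-OT1 on the same strand, and reads from the shared bases were left out.

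TGFB3 (ENSG00000119699.7), the third isoform, was the one of the 10 genes that was lower with doxycycline. It was at 21.6, 21.7 and 20.1 CPM in EW8 vehicle and at 12.6, 14.1 and 12.2 CPM in EW8 doxycycline libraries (log2 fold change -0.70, SE 0.14, adjusted p = 0.000492). In TC71 it was at 21.6, 15.6 and 13.7 CPM under vehicle and at 7.64, 9.25 and 8.96 CPM with doxycycline (log2 fold change -0.98, SE 0.14, adjusted p = 1.86e-05). No doxycycline library reached the lowest vehicle library of its line. The TC71 value lay at the fold limit, and it was called lower under 4 other ways of scaling, filtering or testing, with values from -1 to -1.07, and in 8 of the 12 fits that left out a library.

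Per kilobase of exon, TGFB1 made up 87.7 ± 1.22% of the summed level of the 3 TGF-beta ligand genes in EW8 under vehicle and 92.6 ± 0.52% with doxycycline (n = 3 each). In TC71 the share went from 95.3 ± 1.36% to 98.9 ± 0.0874%. TGFB3 made up 10.4 ± 1.02% and 4.78 ± 0.297% in EW8, and 4.47 ± 1.3% and 0.952 ± 0.0691% in TC71. TGFB2 held 1.97 ± 0.246% and 2.6 ± 0.244% in EW8 and 0.192 ± 0.0582% and 0.105 ± 0.0299% in TC71. These TGFB2 shares are understated, since its exon length still held the 26.6% of bases whose reads were left out. The ranges of the TGFB1 and TGFB3 shares did not overlap between vehicle and doxycycline in either line. Against TGFB1, the level of INHBA per kilobase was 0.00158 ± 5.51e-05 in EW8 under vehicle and 1.88 ± 0.108 with doxycycline, so that INHBA stood above TGFB1 in all 3 libraries. In TC71 with doxycycline the ratio was 0.131 ± 0.00505, below 1 in all 3 libraries, and under vehicle INHBA lay at the floor.

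The receptor genes differed in how far they rose. TGFBR2 (ENSG00000163513.17; chromosome 3, 30606502 to 30694142, plus strand, hg38), the ligand-binding type II receptor, was at 13.5, 16.2 and 15.1 CPM in EW8 vehicle and at 81.3, 89.5 and 86.4 CPM in EW8 doxycycline libraries. Its TC71 values were 15.4, 20.5 and 21.0 CPM under vehicle and 206, 194 and 203 CPM with doxycycline. The groups were far apart in both lines. EW8 gained 2.52 on the log2 scale (SE 0.10, adjusted p = 3.05e-13), and TC71 gained 3.40 (SE 0.09, adjusted p = 3.99e-15). TC71 therefore gained 0.88 more (SE 0.13, adjusted p = 0.000101), under the fold limit.

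TGFBR1 (ENSG00000106799.12), the type I receptor kinase, was at 13.4, 15.9 and 17.4 CPM in EW8 vehicle and at 25.1, 22.1 and 24.3 CPM in EW8 doxycycline libraries. In TC71 it was at 21.8, 25.2 and 20.3 CPM under vehicle and at 33.6, 36.3 and 36.3 CPM with doxycycline. The vehicle and doxycycline groups did not overlap in either line, at log2 fold changes of 0.62 (SE 0.11, adjusted p = 0.000119) and 0.66 (SE 0.10, adjusted p = 4.38e-05), both under the fold limit. The difference between the 2 responses was 0.04 (SE 0.15, adjusted p = 0.913). Per kilobase, the ratio of TGFBR2 to TGFBR1 was 1.41 ± 0.121 under vehicle and 5.26 ± 0.588 with doxycycline in EW8, and 1.24 ± 0.242 and 8.27 ± 0.594 in TC71 (n = 3 each). Every doxycycline library lay above every vehicle library in that ratio, and those of TC71 above those of EW8.

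Beside TGFBR2, the levels of the fusion partner genes were read. FLI1 was at 42.9 ± 2.68 and 42.5 ± 1.68 CPM in EW8 vehicle and doxycycline libraries (log2 fold change -0.01, SE 0.07, adjusted p = 0.912) and at 84.4 ± 4.22 and 75.8 ± 3.2 CPM in TC71 (-0.15, SE 0.07, adjusted p = 0.0707). EWSR1 changed by -0.14 (SE 0.06, adjusted p = 0.0954) in EW8 and fell by 0.34 on the log2 scale (SE 0.06, adjusted p = 0.000205) in TC71. Gene counts do not separate the fusion transcript from EWSR1 of the other allele, and the part of the fusion in the TGFBR2 result was not tested.

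**Figure D2:**
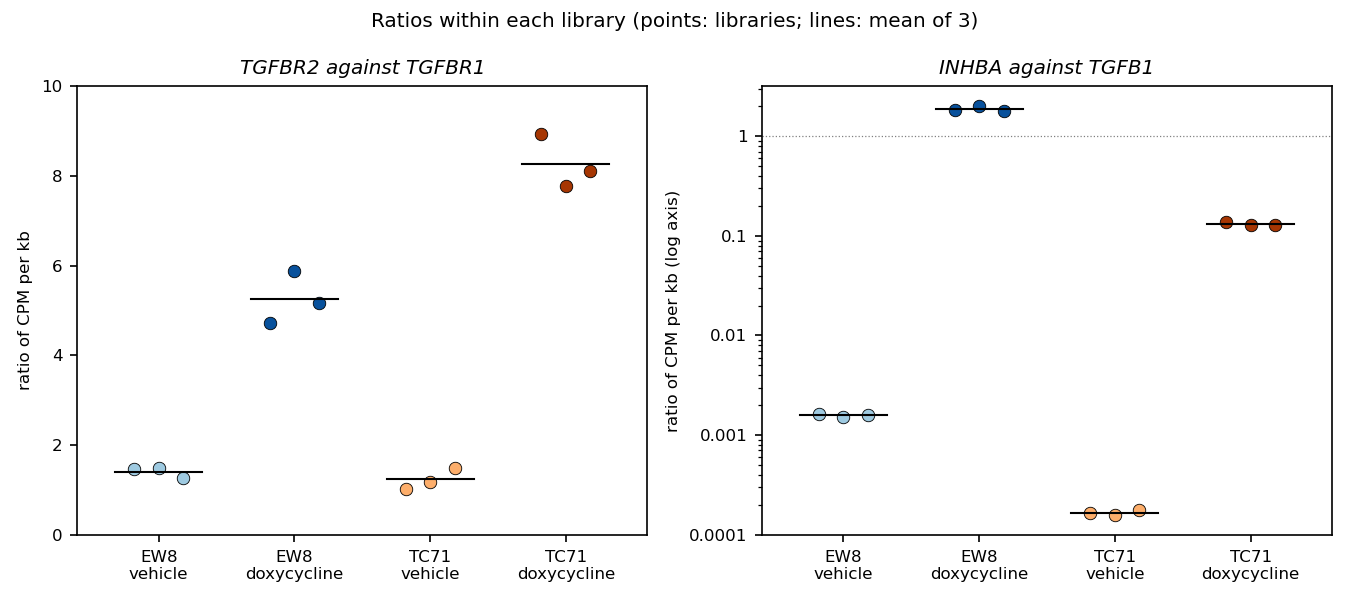
Ratio of TGFBR2 to TGFBR1 (left, linear axis) and of INHBA to TGFB1 (right, log axis) within each library, from CPM per kilobase of exon. Points are libraries and lines the mean of 3. The receptor ratio lies between 1.03 and 1.5 in the vehicle libraries and between 4.72 and 8.92 in the doxycycline libraries, and the INHBA ratio passes 1 in EW8 doxycycline libraries alone.

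Both LTBP genes rose, and more in TC71. LTBP1 (ENSG00000049323.15), which anchors latent TGF-beta in the matrix, was at 15.4, 13.4 and 13.3 CPM in EW8 vehicle and at 34.0, 37.8 and 33.7 CPM in EW8 doxycycline libraries. In TC71 it was at 19.7, 23.2 and 24.2 CPM under vehicle and at 118, 120 and 115 CPM with doxycycline. No groups of the same line overlapped, and LTBP1 gained 1.33 on the log2 scale in EW8 (SE 0.09, adjusted p = 6.19e-10), beside 2.39 in TC71 (SE 0.08, adjusted p = 9.28e-14). LTBP2 (ENSG00000119681.11), a matrix protein of the same family that does not bind latent TGF-beta, was low throughout. It was at 0.541, 0.676 and 0.485 CPM in EW8 vehicle, at 1.65, 2.45 and 1.87 CPM in EW8 doxycycline, at 0.439, 0.644 and 0.718 CPM in TC71 vehicle and at 8.24, 9.68 and 9.26 CPM in TC71 doxycycline libraries. LTBP2 gained 1.81 in EW8 (SE 0.26, adjusted p = 1.23e-05), beside 3.91 in TC71 (SE 0.24, adjusted p = 3e-10), without overlap of the groups. Per kilobase, LTBP1 exceeded LTBP2 by 31.3 ± 5.88 times in EW8 vehicle and 22.4 ± 3.25 times in EW8 doxycycline libraries, ranges that overlapped, and by 47.4 ± 7.22 and 16.2 ± 1.43 times in TC71, ranges that did not.

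SMAD7 (ENSG00000101665.9), the inhibitory SMAD of the pathway's feedback loop, rose further in EW8 than in TC71. It was at 9.52, 8.67 and 10.4 CPM in EW8 vehicle and at 32.4, 33.6 and 28.4 CPM in EW8 doxycycline libraries (log2 fold change 1.72, SE 0.13, adjusted p = 3.88e-09). TC71 libraries had 26.2, 19.4 and 17.4 CPM under vehicle and 39.0, 40.9 and 36.7 CPM with doxycycline (0.89, SE 0.12, adjusted p = 1e-05, under the fold limit). TC71 started from the higher level, and the difference of the responses was -0.84 (SE 0.18, adjusted p = 0.00249). This difference passed the fold limit, at -1.04, without TC71 vehicle replicate 3.

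TGFBI (ENSG00000120708.16), a secreted matrix protein that binds collagens and integrins, went from near absence to one of the higher levels among the 10 genes. The EW8 vehicle libraries held 4, 10 and 10 counts (0.0902, 0.218 and 0.180 CPM) and the EW8 doxycycline libraries 169, 164 and 157 CPM. The TC71 vehicle libraries held 2, 6 and 6 counts, at the floor, and the TC71 doxycycline libraries 566, 588 and 547 CPM. The log2 fold change was 9.93 (SE 0.25, adjusted p = 5.58e-20) in EW8, and in TC71 the gene was at least 4870-fold higher with doxycycline (adjusted p = 7.95e-21). With doxycycline, TC71 was above EW8 by 1.80 on the log2 scale (SE 0.06, adjusted p = 6.73e-14), without overlap.

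The lines were then compared in their responses. The difference between responses, TC71 minus EW8, was called for 3 of the 10 genes (LTBP1, LTBP2 and TGFBI), where 7.05% of all genes were called, and 6 of 10 passed by adjusted p alone, where 19.3% of all genes passed. It was 2.74 (SE 0.41, adjusted p = 7.76e-05) for TGFBI, 2.10 (SE 0.35, adjusted p = 0.000319) for LTBP2 and 1.07 (SE 0.12, adjusted p = 4.18e-06) for LTBP1. The TGFBI value rests on 2 to 10 counts in the vehicle libraries and depends on how such counts are handled in the fit. The LTBP1 difference fell under the fold limit in 4 of the fits that left out a library, at 0.99 without EW8 vehicle replicate 1, 0.93 and 0.94 without EW8 doxycycline replicates 1 and 3, and 0.85 without TC71 vehicle replicate 1, its adjusted p staying under 0.05. It was also under the limit, at 0.96, among genes with at least 10 counts in every library, and it did not pass edgeR's test against the limit itself (adjusted p = 1). TGFB1 and TGFBR2 passed by adjusted p alone with the larger response in TC71, and SMAD7 with the larger response in EW8. Each difference that passed by adjusted p with the larger response in TC71 was smallest without TC71 vehicle replicate 1, the library farthest from its group. Beside LTBP1, it came to 2.3 for TGFBI, 1.79 for LTBP2, and 0.63 for TGFB1 and for TGFBR2, with the calls of these genes unchanged. TGFB2 (-0.42, SE 0.35), TGFB3 (-0.28, SE 0.20), INHBA (0.19, SE 0.30) and TGFBR1 (0.04, SE 0.15) did not pass. The INHBA value rests on 5 to 6 counts in the TC71 vehicle libraries, at the floor, so it does not show that the responses were equal. The inducible genes themselves differed in the same comparison, by 2.21 (adjusted p = 6.41e-12) for FOS and 0.73 (adjusted p = 0.00217) for JUN, and their part in these differences was not tested.

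**Figure D3:**
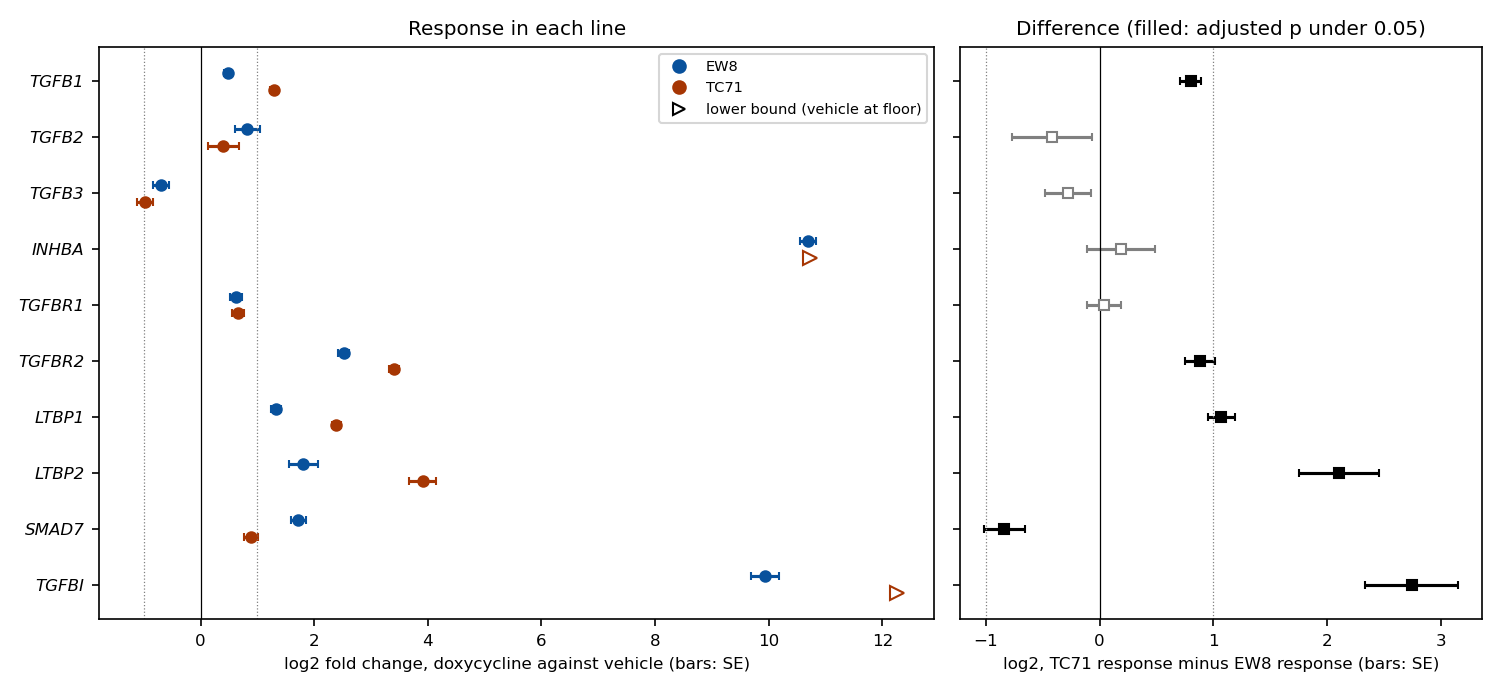
Left, log2 fold change of each gene with doxycycline against vehicle in EW8 and TC71, with SE. Open triangles are lower bounds where the vehicle libraries lay at the floor. Right, the TC71 response minus the EW8 response with SE, filled where the adjusted p was under 0.05. Dotted lines mark the log2 fold limit of 1. TGFB3 lies left of 0 in both lines, and SMAD7 is the filled gene to the left of 0 in the right panel.

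Under vehicle, TC71 and EW8 differed by the call rule in 4 of the 10 genes (30.6% of all genes were called) and by adjusted p alone in 7 of 10 (61.7%). TGFB1 was higher in TC71 by 1.03 on the log2 scale (SE 0.07, adjusted p = 2.19e-10) and SMAD7 by 1.14 (SE 0.13, adjusted p = 4.18e-07). TGFB2 was lower in TC71 (-2.46, SE 0.25, adjusted p = 9.04e-08), and INHBA was at least 4.1-fold higher in EW8, with TC71 at the floor. The TGFB1 value lay close to the fold limit, at 0.96 without EW8 vehicle replicate 1 and 1.00 without TC71 vehicle replicate 3. With doxycycline, 7 of the 10 genes differed between the lines by the call rule (31% of all genes) and 10 of 10 by adjusted p alone (62.5%). TGFB1 (1.83), TGFBI (1.80), LTBP2 (2.19), LTBP1 (1.74) and TGFBR2 (1.23) were higher in TC71, and TGFB2 (-2.87) and INHBA (-2.01) lower.

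The order of the 10 genes by level per kilobase of exon changed with doxycycline. Under vehicle TGFB1 led in both lines, at 36.5 ± 2.89 CPM per kilobase in EW8 and 74.5 ± 5.32 in TC71, and the gene next to it was at 4.3 ± 0.186 (TGFB3, EW8) and 4.17 ± 0.909 (SMAD7, TC71). In EW8 vehicle libraries TGFBR2 (3.18 ± 0.292), TGFBR1 (2.27 ± 0.293), LTBP1 (1.91 ± 0.166), SMAD7 (1.89 ± 0.17) and TGFB2 (0.816 ± 0.093) followed, of which the ranges of TGFBR1 and LTBP1 and those of LTBP1 and SMAD7 overlapped. LTBP2 (0.0624 ± 0.0108) and INHBA (0.0576 ± 0.00313) overlapped too, and TGFBI came last. In TC71 vehicle libraries each of SMAD7, TGFBR2 (4.03 ± 0.659), TGFB3 (3.45 ± 0.833), TGFBR1 (3.28 ± 0.366) and LTBP1 (3.05 ± 0.327) overlapped its neighbour in the order. TGFB2 (0.149 ± 0.0383) and LTBP2 (0.0661 ± 0.0159) stood below them, and INHBA and TGFBI lay at the floor.

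With doxycycline no neighbours in the order overlapped in either line. In EW8, INHBA led at 96.2 ± 8.09 CPM per kilobase, followed by TGFB1 (51.2 ± 2.33), TGFBI (20.9 ± 0.783), TGFBR2 (18.2 ± 0.884), SMAD7 (6.25 ± 0.542), LTBP1 (4.8 ± 0.314), TGFBR1 (3.48 ± 0.223), TGFB3 (2.64 ± 0.204), TGFB2 (1.44 ± 0.119) and LTBP2 (0.219 ± 0.0456). In TC71, TGFB1 kept the lead at 182 ± 9.16, followed by TGFBI (72.6 ± 2.63), TGFBR2 (42.6 ± 1.34), INHBA (23.9 ± 0.79), LTBP1 (16 ± 0.323), SMAD7 (7.72 ± 0.417), TGFBR1 (5.17 ± 0.231), TGFB3 (1.75 ± 0.175), LTBP2 (0.997 ± 0.0815) and TGFB2 (0.196 ± 0.066). TGFBI, last under vehicle in EW8 and at the floor with INHBA in TC71, was thus the third gene in EW8 and the second in TC71.

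Across the 12 libraries, which hold both lines and both treatments, the genes were set side by side by Pearson's r of log2 CPM, as a description. TGFBR2 and TGFBI had r = 0.98, TGFBR2 and LTBP2 0.97, LTBP1 and LTBP2 0.97 and INHBA and TGFBI 0.97. TGFB3 ran opposite to most, at -0.95 with LTBP1 and -0.93 with TGFBR2, and TGFB2 stood apart, at -0.06 with TGFBR2 and -0.70 with TGFB1. Among 14986 genes, those most like TGFBR2 were ADAM9, ENSG00000184906 and MMP10 (r = 0.996 each), those most like INHBA were SDC4 (0.998), PRKAG2 and SORD2P (0.997 each), and those most like TGFBI were CKAP4, JUN (0.998 each) and KRT81 (0.997). For SMAD7 they were HOXD10, KDM1B (0.99 each) and TPMT (0.983), for LTBP1 MPZL1, SH3KBP1 (0.996 each) and DAPK2 (0.995), for LTBP2 CD59, ANPEP and PYGB (0.992 each), and for TGFB1 ANKRD28 (0.996), GAA and MESD (0.993 each). For TGFB2 they were GFRA2 (0.994), TRIM22 (0.991) and GBP1 (0.989), for TGFB3 the close paralogs FAM156B and FAM156A (0.978 each) and NPIPA9 (0.974), and for TGFBR1 SERTAD1 (0.984), EPDR1 (0.974) and CREB3L2 (0.973). With 4 groups behind the 12 points, any gene of the same group pattern comes out alike.

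Other genes of the pathway, its BMP branch and the proteins that activate or respond to it were counted in 8 lists of 122 genes, some of them in 2 lists, of which 104 were tested. With doxycycline, 30 of the 104 were called higher and 5 lower in EW8, and 36 higher and 3 lower in TC71, beside 11.4% higher and 3.38% lower of all genes in EW8 and 12.3% and 3.67% in TC71. Their median log2 fold change was 0.27 in EW8 and 0.55 in TC71. In the list of latency and activation genes, 9 of 18 were called higher in EW8 and 11 of 18 in TC71, and 0 lower, with a median log2 fold change of 1.40 and of 2.03 (1.69 taking genes at the floor at their bounds). ITGAV, an integrin subunit that binds the latent complex, rose from 46.2 ± 0.926 to 291 ± 8.35 CPM in EW8 and from 68.6 ± 7.81 to 348 ± 2.21 CPM in TC71. MMP9, a gelatinase able to release latent TGF-beta, rose by 4.49 (SE 0.21) and 4.91 (SE 0.33), ITGB3 by 2.83 (SE 0.56) and 2.97 (SE 0.55), and MMP2 by 1.32 (SE 0.07) and 4.07 (SE 0.09) on the log2 scale, in EW8 and TC71. Vehicle libraries held few counts of ITGB3 (4 to 14 in EW8 and 4 to 18 in TC71) and, in TC71, of MMP9 (3 to 25). ITGB6, named after its value was seen, was called higher in EW8 from 0 counts under vehicle and 2 to 8 with doxycycline. Its doxycycline mean of 0.112 CPM lay under the vehicle floor of 0.135 CPM, so no bound could be given. The EW8 counts over this list and over the 104 genes include it.

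In the list of TGF-beta response genes, 14 of 26 were called higher in EW8 and 17 of 26 in TC71, and 0 lower, with a median of 1.15 in EW8 and of 2.09 in TC71 (1.32 taking genes at the floor at their bounds). PMEPA1, an inhibitor of the pathway induced by it, rose by 6.32 (SE 0.44) in EW8 and 2.58 (SE 0.23) in TC71, and PTHLH by 5.83 (SE 0.25) and 3.71 (SE 0.12). The EW8 values rest on few vehicle counts, 2 to 12 for PMEPA1 and 7 to 10 for PTHLH. With doxycycline PMEPA1 was at 8.88 ± 0.663 CPM in EW8 and 8.59 ± 0.835 CPM in TC71. IL11, a cytokine of fibrosis, rose by 4.45 (SE 0.29) and 8.92 (SE 0.36), and FN1, fibronectin, by 1.56 (SE 0.14) and 4.91 (SE 0.14). The TC71 vehicle libraries held 6 to 28 counts of IL11. Among the genes called higher in TC71 were POSTN and COMP, named after their values were seen, with vehicle libraries at the floor. Their bounds of 0.12 and 0.89 on the log2 scale lay under the fold limit. The counts over this list and over the 104 genes include them. Several genes of this list are also known to respond to AP-1, and receptor signalling was not measured.

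Of the SMADs and intracellular regulators, 5 of 25 were called higher in EW8 and 3 of 25 in TC71, and 0 lower, with medians of 0.03 and 0.25. The TC71 count was no larger a share than the 12.3% of all genes called higher there. The members called in both lines were PMEPA1, LDLRAD4 (3.58, SE 0.31, and 2.82, SE 0.29), an inhibitor of SMAD phosphorylation, and the signal transducer SMAD3 (1.83 and 1.59, SE 0.07 each). Of the other receptors and co-receptors, 3 of 12 were called higher in each line, and 1 of 12 lower in EW8 and 0 in TC71. By adjusted p alone, 7 of the 12 were lower and 4 higher in EW8, with a median log2 fold change of -0.34, and 3 were lower and 5 higher in TC71, with a median of 0.05. ACVR1, a type I receptor, rose by 1.47 and 1.85 (SE 0.09 each), and BMPR1B by 2.07 (SE 0.19) and 2.21 (SE 0.18). AMHR2, the receptor of anti-Müllerian hormone, was at least 29.9-fold higher in EW8, with vehicle at the floor. It rose by 4.42 (SE 0.52) in TC71, from 2 to 12 counts in the vehicle libraries. TGFBR3, the co-receptor betaglycan, fell in EW8 (-1.04, SE 0.14) and was at -0.96 (SE 0.15) in TC71, under the fold limit.

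**Figure D4:**
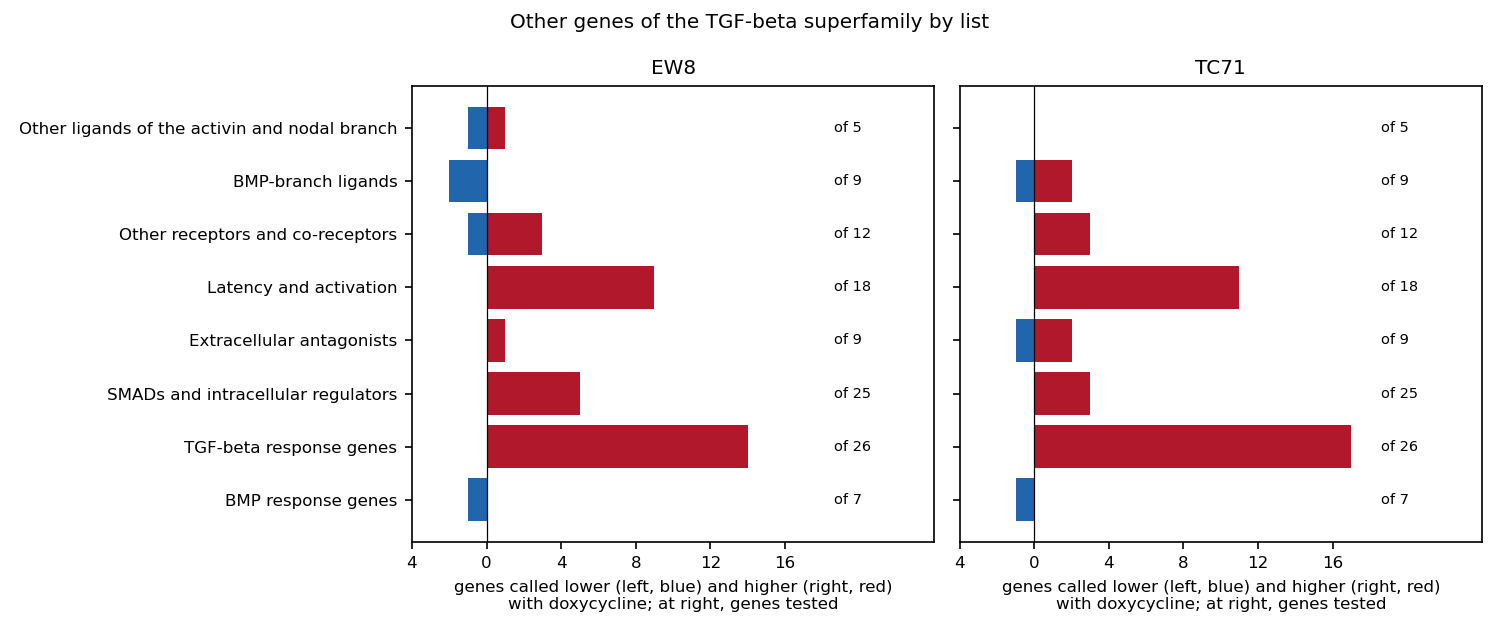
Number of genes called higher (red, to the right) and lower (blue, to the left) with doxycycline in each of the 8 lists, with the number tested at the right, in EW8 and TC71. The bars of latency and activation and of TGF-beta response genes reach 9 to 17, all to the right, and the BMP response list shows 1 gene called lower in each line.

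The remaining lists were short. Their counts stand beside 11.4% of all genes called higher and 3.38% lower in EW8, and 12.3% and 3.67% in TC71. Of the extracellular antagonists, FSTL3, which binds activin, rose from 22.0 ± 1.3 to 129 ± 10.5 CPM in EW8 and from 4.32 ± 0.844 to 87.7 ± 11.7 CPM in TC71, and it was the 1 of 9 called in EW8. In TC71, 2 of 9 were called higher (FSTL3 and CHRD, 2.63, SE 0.42) and 1 lower (DCN, -1.73, SE 0.25). The CHRD value rests on 2 to 15 counts in the vehicle libraries. Of the BMP-branch ligands, 0 of 9 were called higher and 2 lower in EW8 (BMP5, -1.16, and GDF10, -1.22), and 2 higher (BMP6, 1.79, and BMP2, 1.51) and 1 lower (BMP5, -2.02) in TC71. Of the BMP response genes, 0 of 7 were called higher and 1 lower in each line, ID4 (-1.97 and -1.11, SE 0.10 each). Of the other activin and nodal ligands, 1 of 5 was called higher in EW8 (GDF15, 1.68, SE 0.45) and 1 lower, INHBC, named after its value was seen and with doxycycline libraries at the floor, at least 2.97-fold lower, and 0 of 5 in TC71.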

How the data were processed

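RNA-seq read counts per gene from 12 libraries of the human Ewing sarcoma lines EW8 and TC71 were analysed, 3 per line and treatment, grouped by GEO's labels. Poly(A) RNA was made into stranded libraries. The authors aligned paired reads with STAR to GRCh38 and deposited whole-number counts from featureCounts 2.0.1 over GENCODE 29 exons. Per the file headers, the counting ignored strand, treated the mates of a pair as separate reads and dropped reads on several genes or places. The deposited exon length served for levels per kilobase.

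Symbols were matched by identifier for 58252 of 58721 genes (99.2%). In R 4.3.3, edgeR 4.0.16 removed low genes with filterByExpr, which left 21013 genes with 99.95% of counts, scaled libraries by trimmed mean of M-values and fitted 1 quasi-likelihood model to all 12 libraries (common dispersion 0.0143). SEs came from the fitted means and dispersions. The study's limits for a call were kept, though the study used DESeq2 (1.42.0, an alternative here). A group with at most 6 counts in each library was at the floor, and folds against it are bounds, taken at the largest CPM that 6 counts make in a library of that group. Such floors cover counting error only. The fit was tested on simulated data.

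The 10 genes and the lists were chosen with earlier results of these data known. All 10 genes are described. From each list, up to 3 genes called higher and up to 3 called lower per line were named by size of change, with a mean of at least 1 CPM in the higher group, and for likeness the 3 genes of highest r. A gene that this rule names is not reported here. Alternatives were another scaling, filters, DESeq2, each line alone, other fold limits, a replicate block and leaving out each library. Replicate numbers were not read as pairs, and the labels do not say whether they mark pairs.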

Additional observations from a re-analysis of the deposited data

Results flagged for a closer look

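The responses to doxycycline of 3 genes differed between the lines by the interaction test in edgeR. For TGFBI the TC71 response minus the EW8 response was 2.74 (SE 0.41, adjusted p = 7.76e-05), with 2 to 10 counts in the vehicle libraries behind it. For LTBP2 it was 2.10 (SE 0.35, adjusted p = 0.000319). For LTBP1 it was 1.07 (SE 0.12, adjusted p = 4.18e-06), with 0.85 to 1.1 when each library was left out in turn. By the same call rule, 7.05% of all genes tested differed in response. All 3 genes were called higher with doxycycline in both lines.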

How the results depend on the processing

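Of the values recomputed for the 10 genes under the alternatives, 970 kept their side of the call, 30 gained a call and 10 lost one. The gains include values called only because the fold limit was dropped. Of values called or passing by adjusted p, 0 reversed direction, but values that did not pass could change sign. The LTBP2 difference between the lines under vehicle, 0.09, came to -0.02 without TC71 vehicle replicate 3. The TGFBR1 difference of responses, 0.04, came to -0.14 without EW8 vehicle replicate 3. The number of the 10 genes called higher was 6 in both lines under each scaling, without a filter, with DESeq2, with each line fitted alone, by the test against the limit and in the fits leaving out a library, 4 with the filter of at least 10 counts, and 9 in EW8 and 8 in TC71 without the fold limit. The 1 gene called lower in TC71, TGFB3, appeared under median-ratio scaling, under library size alone, with at least 10 counts in every library, with DESeq2, and without the fold limit, and in 0 to 1 counts across the fits leaving out a library. Without the fold limit, 1 gene was lower in EW8, 6 differed in response and 7 differed under vehicle, where a test against the limit called 2. The filter of at least 10 counts removed INHBA and TGFBI by construction, and 1 difference of responses was left (LTBP2), since LTBP1, still tested, came to 0.96. Among the list genes that filter left 18 higher and 3 lower in EW8 and 23 higher and 5 lower in TC71. Lower list genes in EW8 numbered 1 by the test against the limit, 22 without a fold limit and 3 to 7 leaving out a library, and in TC71 5 by library size alone or no filter, 14 without a fold limit and 3 to 6 leaving out a library (6 without TC71 vehicle replicate 1 or 3, whereas the 3 and 7 of EW8 came without EW8 vehicle replicates 3 and 1, and 3 also without EW8 doxycycline replicate 3). With the replicate block, 6 genes were higher in each line, 3 differed in response, and 38 list genes were higher in TC71. In their deviations from the group mean, same-numbered libraries correlated at -0.072 to 0.062 and others at -0.097 to 0.08. The numbers were therefore not read as pairs, though with 3 libraries in a group such values cannot exclude a pairing. Leaving shared exon bases out of the length, chosen after seeing the data, put the TGFB1 share at 92.1% in EW8 with doxycycline, against 92.6%. Depth limits TGFB2 in TC71 and the vehicle levels of INHBA and TGFBI.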
